A study of Salix viminalis with 12 samples.

Results

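The genes described here are 10 Arabidopsis genes of fermentation and low-oxygen response, looked up by their code in the annotation of a root transcriptome of *Salix viminalis* (basket willow). They are alcohol dehydrogenase, pyruvate decarboxylases, aldehyde dehydrogenase 2B4, lactate dehydrogenase, sucrose synthases, a haemoglobin and regulators of oxygen sensing. Of the 10 genes, 8 were listed, with 59 contigs among the 64173 that carry a code. A contig is here a predicted coding sequence of the assembly, and it was assigned to a gene when its gene model code, without the suffix after the dot, was that of the gene.

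The roots came from cuttings of the same willow individual, so that all plants were a single clone. There were 3 libraries of each group, CT (control soil, temperate), CC (control soil, cold acclimated), MT (metal-polluted soil, temperate) and MC (metal-polluted soil, cold acclimated), 12 in all. The spiked soil of MT and MC held zinc at 500 ppm, copper at 175 ppm, nickel at 30 ppm and cadmium at 1.5 ppm, and plants stood on their soil for 40 days before the 4 weeks of cold. Day and night temperatures were 23 and 20 °C for CT and MT, and 7 and 5 °C for CC and MC, although the treatment labels give 22 and 4 °C. The assembly pools the libraries. Its table has 5 columns of names and text and 0 columns of values per library. Levels of these genes in CT, CC, MT and MC were therefore not compared, library depths are not known from it, and the counts below have no replicates and no tests. A count of contigs is neither an expression level nor a number of gene copies. Of 5 genes that mark root cell types in Arabidopsis, 4 were listed (AT1G66470 was not). Of 5 leaf genes, 3 were listed (AT5G38410 and AT2G34420 were not). These counts give presence only and cannot check the tissue.

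As background, plant cells that run short of oxygen lose most of their respiration and make ATP by glycolysis. Pyruvate decarboxylase and alcohol dehydrogenase turn pyruvate into ethanol and regenerate NAD+, lactate dehydrogenase does so by making lactate, and sucrose synthase feeds sugar into glycolysis at a lower cost of ATP than invertase. In Arabidopsis the response is switched on by group VII ethylene response factors (ERF-VII). These are kept short-lived in air by plant cysteine oxidases, which mark their N-terminal cysteine for the N-degron route of protein breakdown. The names PDC1, PDC2, SUS1, LDH and PCO1 used below are the usual Arabidopsis names, which the table does not pair with these codes.

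The counts spread from 0 to 23 contigs per gene. The most contigs were listed under AT3G48000 (ALDH2B4), with 23, and AT1G77120 (ADH1), with 17. Their order rests on the first Trinity assembly, with 19 against 8 contigs, and was turned in the second, with 1 against 4, and in CLC, with 3 against 5. AT3G43190 (SUS4) followed with 7 contigs, AT1G53910 (RAP2.12) with 4 and AT4G33070 (PDC1) with 3. AT4G17260 (LDH) and AT5G15120 (PCO1) had 2 contigs each, and AT2G16060 (AHB1) had 1. AT5G54960 (PDC2) and AT5G20830 (SUS1) had 0 contigs. A code that is not listed says only that no contig was given that code. The authors annotated contigs by their top match to *S. purpurea*, so a code need not be the Arabidopsis gene closest to the contig.

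**Figure D1:**
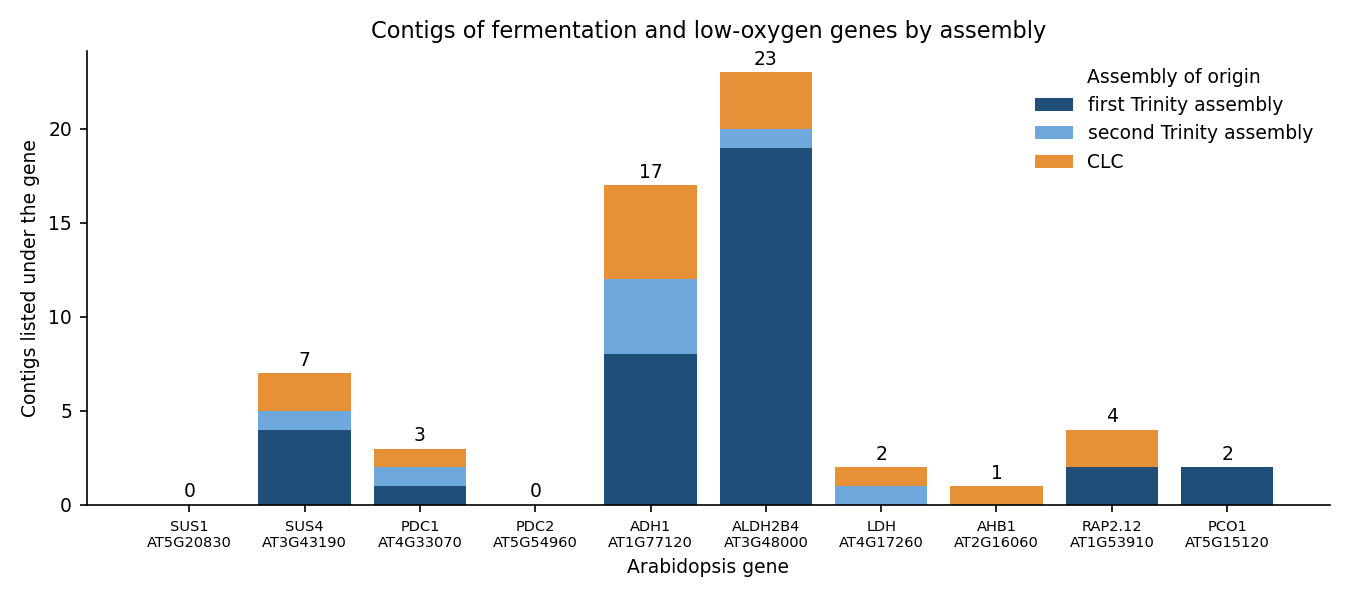
Contigs listed under each of the 10 genes (bar height, with the total above it), split by the assembly named in the contig. The x axis orders the genes from sucrose breakdown to oxygen sensing. ALDH2B4 and ADH1 stand at 23 and 17 contigs, the other listed genes between 1 and 7, and SUS1 and PDC2 at 0.

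Over all 10 genes the median was 2.5 contigs, and over the 8 that were listed 3.5. Over the 13764 Arabidopsis genes listed it was 3, with quartiles of 2 and 5, but these include no gene at 0 by construction. More than 1 contig was found for 7 of the 8 listed genes, against 77.7% of all genes listed. At least 10 contigs were found for 2 of the 8, ADH1 and ALDH2B4, against 8.74%. ALDH2B4 ranked 202 and ADH1 ranked 331 by number of contigs, and 98.4% and 97.3% of listed genes had fewer. SUS4 had more contigs than 82.3% of listed genes, RAP2.12 than 58.5%, PDC1 than 43.2% and LDH and PCO1 than 22.3%. The low end of the range is thus common in this assembly, and of these genes ADH1 and ALDH2B4 lie beyond the 90th percentile, which was 9 contigs.

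**Figure D2:**
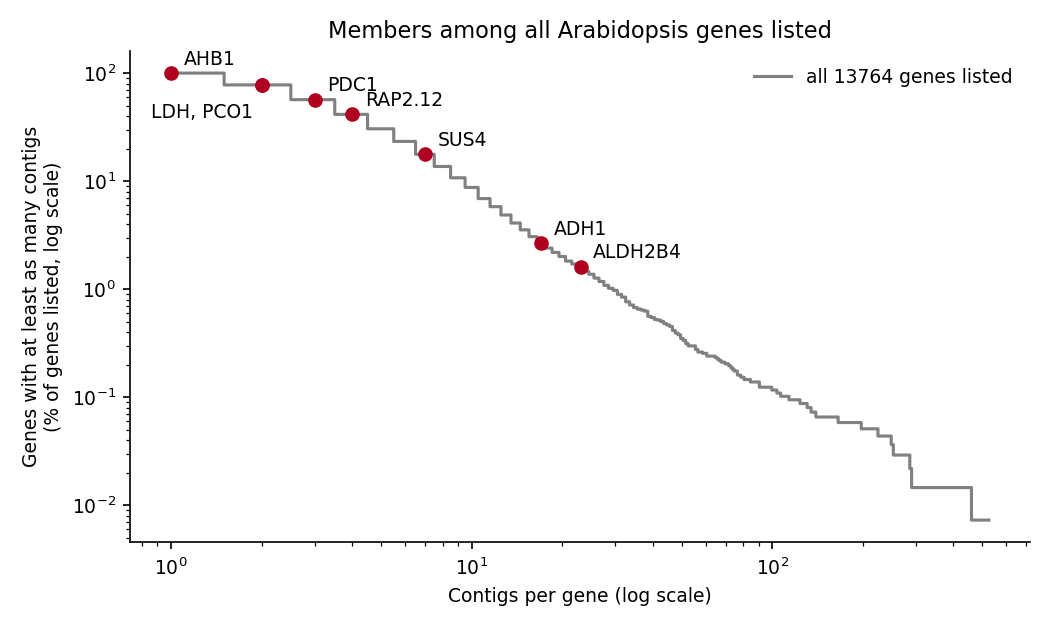
Share of the 13764 listed genes (y axis, %, log scale) with at least the number of contigs on the x axis (log scale), as a grey line, with the 8 listed genes of fermentation and low-oxygen response as red points. ADH1 and ALDH2B4 lie to the right of the others, at 17 and 23 contigs, and the point at 2 contigs stands for both LDH and PCO1.

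Contigs of the first step, the cleavage of sucrose, were listed under SUS4 and none under SUS1. SUS4 had 4 contigs from the first Trinity assembly, 1 from the second and 2 from CLC. The 4 contigs of the first Trinity assembly belonged to the same Trinity gene, the group of transcripts that Trinity assigns to a locus, and their isoform numbers reached 10. SUS4 and SUS1 are close paralogues in Arabidopsis. Of the other sucrose synthases, AT4G02280 (SUS3) had 3 contigs, AT5G37180 (SUS5) and AT1G73370 (SUS6) had 2 each, and AT5G49190 was not listed. The family of 6 genes thus had 14 contigs, of which SUS4 held 7. A search for the symbol SUS1 leads elsewhere: it returned 3 contigs of AT1G01040, described as dicer-like 1, a gene of small RNA processing.

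Pyruvate decarboxylase commits pyruvate to ethanol. PDC1 had 1 contig from each of the 3 assemblies, in 2 Trinity genes, and PDC2 had none. More contigs were listed under AT5G01320, another pyruvate decarboxylase of Arabidopsis, with 6 contigs, 3 of them from CLC. AT5G01330 was not listed, so that the 4 genes had 9 contigs on 2 codes. The PDC1 contig of the second Trinity assembly lay in component DN109839, which also held 1 contig of AT5G01320 in a different Trinity gene. A component is taken here as all names of the same assembly with the same DN number. The CLC transcript of PDC1 carried a further coding sequence without a code, the only case among the 59 contigs in which another coding sequence of the parent transcript was kept in the table. The table has no symbol for these genes, and the words "pyruvate decarboxylase" in its descriptions cover 11 contigs of 3 genes, including 2 contigs of AT5G17380, which was in neither list.

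ADH1 reduces acetaldehyde to ethanol. Its 17 contigs came from all 3 assemblies, with 8 from the first Trinity assembly, 4 from the second and 5 from CLC. The 12 Trinity contigs lay in 8 Trinity genes, 6 of the first assembly and 2 of the second, with at most 2 contigs in any of them. The highest isoform number in these Trinity genes ran from 1 to 15, with a median of 6, so that some had high isoform numbers but few contigs in the table. Whether the other isoforms were lost by collapsing or at another step was not tested. Of the 12 contigs, 4 (33.3%) were alone in their Trinity gene, against 46.8% of all Trinity contigs with a code. All 4 were among the 8 contigs of the first Trinity assembly, and none was of the second. This difference rests on few contigs and was not tested. ADH1 shared no Trinity gene with another Arabidopsis gene. In its family, AT5G43940, listed as ADH2 and GSNOR, the enzyme that breaks down S-nitrosoglutathione, had 14 contigs, 11 of them from the first Trinity assembly. AT5G42250 had 6 contigs, AT1G22440 and AT5G24760 had 3 each and AT1G32780 had 2. AT1G22430, AT1G64710 and AT4G22110 were not listed. A search by text both adds to the codes here and misses some: "alcohol dehydrogenase" stands in the descriptions of 103 contigs of 16 genes, of which 26 contigs of 3 genes belong to this family. It does not find AT5G43940, AT5G24760 and AT1G32780, which are described as GroES-like zinc-binding dehydrogenases.

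ALDH2B4, an aldehyde dehydrogenase of mitochondria that oxidises acetaldehyde to acetate, had the most contigs and a different make-up. Of its 23 contigs, 19 (82.6%) came from the first Trinity assembly, 1 from the second and 3 from CLC. Over all contigs with a code, 52.9% came from the first Trinity assembly, 21.4% from the second and 25.8% from CLC. The 20 Trinity contigs of ALDH2B4 lay in 18 Trinity genes of 16 components, and 16 of them (80.0%) were alone in their Trinity gene. Of these, 14 carried isoform number 1, so that no kept name in that Trinity gene points to another isoform. Over all Trinity contigs with a code, 46.8% were alone and 27.2% were alone with isoform number 1. In the plot of isoform numbers, most Trinity genes of ALDH2B4 stand at 1 with 1 contig each, and those of ADH1 range from 1 to 15. The contrast with ADH1 rests on few contigs and differs by assembly. In the first Trinity assembly, ALDH2B4 had 17 Trinity genes for 19 contigs and ADH1 had 6 for 8. The second held 1 contig of ALDH2B4 and 4 of ADH1.

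**Figure D3:**
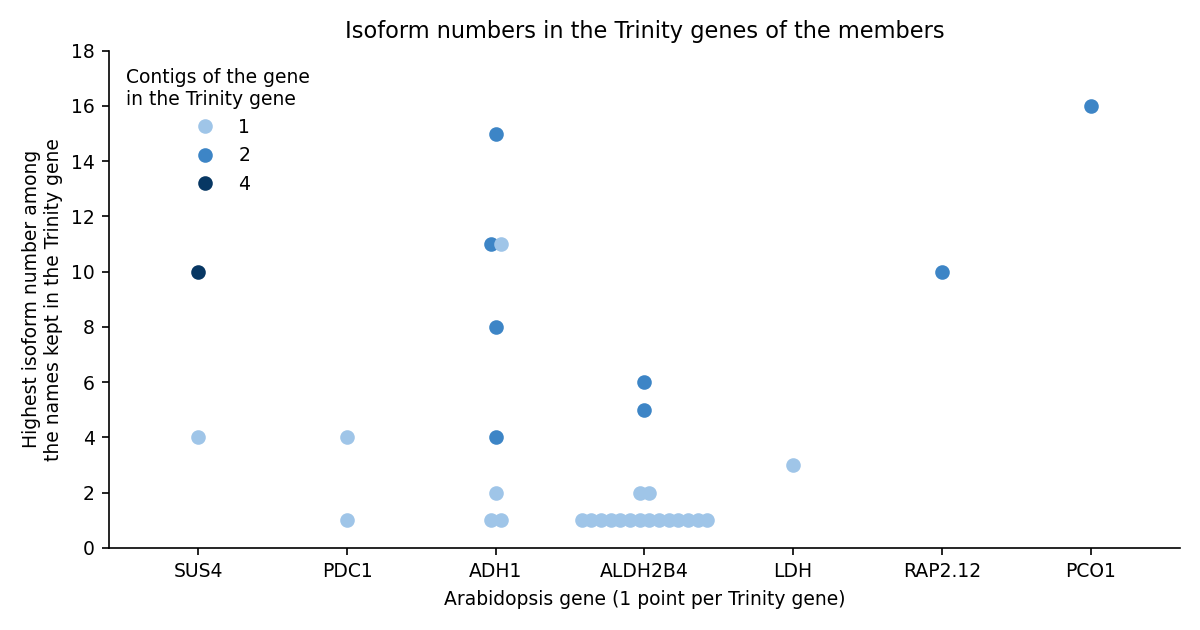
Highest isoform number among the names kept in each Trinity gene (y axis) for the 7 genes with Trinity contigs (x axis); each point is a Trinity gene, and its shade gives how many contigs of the gene it held. Trinity genes of ADH1 range from 1 to 15, whereas most of ALDH2B4 lie at 1 with 1 contig each.

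This contrast was set beside the 369 listed genes with at least as many contigs as ADH1, a comparison chosen after the values were seen. Their median share of contigs from the first Trinity assembly was 59.1%, and 37 of the 369, ALDH2B4 included, had a share as high as its 82.6% or higher. The median share of Trinity contigs alone in their Trinity gene was 54.5%, and 59 of the 369 were as high as ALDH2B4 with 80.0%. For ADH1, 257 of the 369 were as high or higher in the first measure and 258 in the second. ALDH2B4 therefore lies towards the upper end of these genes, and ADH1 in the lower part.

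Among the other aldehyde dehydrogenases some had a make-up like that of ALDH2B4 and some did not. AT2G14170 (ALDH6B2), which acts in the breakdown of valine, had 21 contigs, nearly as many. Of its 19 Trinity contigs, 6 (31.6%) were alone in their Trinity gene, and 66.7% of its contigs came from the first Trinity assembly. The paralogue closest in name, AT1G23800 (ALDH2B7), had 4 contigs, all from the first Trinity assembly and in 4 Trinity genes. It shared a Trinity gene with ALDH2B4, DN106028_c0_g1, which held 2 contigs of ALDH2B4 and 1 of ALDH2B7. Within that Trinity gene the codes cannot be taken as separate loci. AT3G24503 (ALDH2C4), which in Arabidopsis oxidises phenolic aldehydes to hydroxycinnamic acids, had 10 contigs in 9 Trinity genes, 80.0% of them from the first Trinity assembly and 1 in a component with ALDH2B4. AT5G62530 (ALDH12A1), an enzyme of proline breakdown, had 5 of its 6 contigs from the first Trinity assembly, but all 5 in the same Trinity gene. Nearly as many Trinity genes as Trinity contigs were thus found for ALDH2B4 (18 for 20), ALDH2C4 (9 for 10) and ALDH2B7 (4 for 4). This was not particular to them, since AT1G54100 (ALDH7B4) had 3 for 3. ALDH6B2 (12 for 19) and AT1G74920 (ALDH10A8, 8 for 13) were also spread over several Trinity genes, and over more than ALDH2B7. Of the 13 other aldehyde dehydrogenases looked up, 12 were listed, with 92 contigs together, and AT3G48170 was not.

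LDH, which reduces pyruvate to lactate, had 2 contigs, 1 from CLC and 1 from the second Trinity assembly, and none from the first. The table describes it as a lactate/malate dehydrogenase family protein without a symbol. The word "lactate" stands in the descriptions of 29 contigs of 6 genes, of which only these 2 contigs belong to AT4G17260. AHB1, a haemoglobin that in Arabidopsis is induced by low oxygen and scavenges nitric oxide, had 1 contig, from CLC. It was the only listed gene of the 10 without a Trinity contig. Of its relatives, AT4G32690 (GLB3) had 3 contigs, all from Trinity, and AT3G10520 was not listed.

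The regulators had 4 contigs (RAP2.12) and 2 contigs (PCO1), beside a median of 3 over all listed genes. RAP2.12, an ERF-VII factor, was the only gene of the 10 matched under more than 1 gene model: 2 contigs carried model 1 and 2 carried model 3, each with 1 contig from CLC and 1 from the first Trinity assembly. Both Trinity contigs lay in the same Trinity gene, with isoform numbers up to 10, so that the models there are names within a locus as Trinity defines it. Of the other ERF-VII genes, AT3G16770 (RAP2.3) had 5 contigs and AT2G47520 (HRE2) had 4, whereas AT3G14230 and AT1G72360 were not listed.

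PCO1 is described in the table only as a protein of unknown function (DUF1637). Its 2 contigs came from the first Trinity assembly, in the same Trinity gene, DN107534_c0_g1. That Trinity gene also held 2 contigs of AT5G39890, another plant cysteine oxidase of Arabidopsis, and its isoform numbers reached 16. Within it, the codes AT5G15120 and AT5G39890 cannot be taken as separate loci. AT5G39890 had 12 contigs in all, from all 3 assemblies, the most of the 5 plant cysteine oxidases. AT2G42670 and AT3G58670 had 2 contigs each and AT1G18490 had 1. The text DUF1637 picks out 19 contigs of 5 genes, which are exactly these 5.

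Contigs from all 3 assemblies were found for 4 of the 8 listed genes (ADH1, SUS4, ALDH2B4 and PDC1), against 25.9% of all listed genes. Contigs in more than 1 Trinity gene of the same assembly were found for 2 of the 8 (ADH1 and ALDH2B4), against 34.6%. Of the 7 genes with a Trinity contig, 2 (ALDH2B4 and PCO1) shared a Trinity gene with a different Arabidopsis gene, against 11.9% of the 11713 listed genes with a Trinity contig. In both cases the other gene was of the same family. The Trinity contigs of the 10 genes lay in 30 components, of which 8 also held contigs of other Arabidopsis genes, 9 genes in all. Of these 9 genes, 4 were relatives from the family lists. The other 5 were of unrelated description, such as AT4G23180 (CRK10), a receptor kinase, in a component with ADH1. With so few genes, a single gene moves these shares by 10 percentage points or more, and none was tested.

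A symbol was given for 52 of the 59 (88.1%), against 46.0% of all contigs with a code, and the 7 contigs without one were those of PDC1, LDH and PCO1. All 59 had a description. For 8 of the 59 (13.6%) the coding sequence was not the first of its parent transcript, against 11.8% of all contigs with a code. These were 3 contigs of ALDH2B4, 2 of ADH1 and 1 each of SUS4, RAP2.12 and PCO1. Together the 59 contigs made up 0.0919% of the contigs with a code. This is a count over the whole assembly, and no error range is given, since contigs of the same gene are not independent.

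Genes of the wider pathway were looked up as well. The share of all Arabidopsis genes that are listed was not computed, so counts of genes listed give presence only. Of 31 further genes of the low-oxygen response and its side branches, 25 were listed, with 125 contigs and a median of 3 over all 31. Of 8 genes grouped under the N-degron pathway, 6 were listed. The group is wider than the enzymes of this route, since it also holds AT4G27780 (ACBP2), an acyl-CoA binding protein, and AT4G16845 (VRN2), a polycomb protein. AT5G05700 (ATE1), which adds arginine to the oxidised N-terminus, was highest at 7 contigs. AT5G02310 (PRT6), the ubiquitin ligase that follows, had 2. AT3G11240 and AT5G53470 were not listed. Of 12 genes induced by low oxygen in Arabidopsis, 10 were listed, from 1 contig for AT1G43800, a stearoyl-ACP desaturase, to 10 for AT4G27450, described as an aluminium induced protein. AT2G34390 and AT5G10040 were not listed. None of these 12 is described by the table with a word for low oxygen: the text "hypoxi" stands in 4 contigs of 3 genes, 0 of them in any of the lists, and "anaerob" in 0.

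Side branches lead to products other than ethanol, and were listed for 6 of 7 genes of the alanine, GABA, lactate and acetate routes. AT1G72330 (ALAAT2), an alanine aminotransferase that stores pyruvate as alanine, had 6 contigs, all from the first Trinity assembly, and AT1G17290 was not listed. Glutamate decarboxylase, which makes GABA, had 10 contigs under AT5G17330 (GAD1) and 7 under AT2G02010 (GAD4). AT5G36880 (ACS), the acetyl-CoA synthetase that takes up the acetate formed by aldehyde dehydrogenase, had 12 contigs. AT5G17310 (UGP2), which handles the UDP-glucose released by sucrose synthase, had 16 contigs, and AT1G35580, a cytosolic invertase, was not listed, while AT4G09510 (CINV2) had 4.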

How the data were processed

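RNA of roots was sequenced as paired reads of 150 bases in 12 libraries. The authors trimmed and assembled the reads with Trinity and with CLC Genomics Workbench, v. 11.0.1, then predicted coding sequences with TransDecoder (v. 5.5.0), collapsed them with cd-hit-est and matched them by BLAST to *S. purpurea* (Phytozome v. 12.1). The deposited file holds the names and text that resulted (per the file headers: contig, parent transcript, gene code, symbols, description), with 0 columns of values per sample, and no score or sequence of a contig was used here. The authors ran edgeR (v. 3.28.1) on read counts, which were not analysed here.

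Contigs were counted per Arabidopsis gene over all 86843 contigs. Assembly, component, Trinity gene and isoform number were read from the names, and names without a Trinity label were taken as CLC. Relatives and pathway genes came from lists, of which the gene with the most contigs, each gene not listed and each gene sharing a Trinity gene or parent transcript with the 10 were named; further genes were named after their values were seen. Members and lists were chosen with earlier results of these data known. Contigs per gene, and genes in more than 1 Trinity gene of an assembly, were counted on a made-up table of 2000 genes, with 0 counted wrongly. No contigs of that table shared a Trinity gene, so the counts of contigs alone or together in a Trinity gene were not tested. Python (v. 3.11.15), pandas (v. 2.3.3) and matplotlib (v. 3.10.9) were used.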

Additional observations from a re-analysis of the deposited data

How the results depend on the processing

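No paired analysis was possible because the contigs carry names and text without values of single libraries, and for the same reason no library was left out. Counting parent transcripts in place of contigs, Trinity genes in place of Trinity contigs, contigs of the first gene model, the first coding sequence of each transcript or contigs with a description left 48 to 59 contigs on the 10 genes and 8 genes listed in each. Single genes moved by more than 1.5 times: SUS4 from 7 to 4 and PCO1 from 2 to 1 with Trinity genes, RAP2.12 from 4 to 2 with the first gene model and PCO1 from 2 to 1 with the first coding sequence. Single assemblies hold fewer contigs by construction. The 59 contigs became 36 in the first Trinity assembly, 8 in the second and 15 in CLC. ALDH2B4 exceeded ADH1 in the first Trinity assembly (19 against 8), and the order turned in the second (1 against 4) and in CLC (3 against 5). The 8 genes listed became 6 in the first Trinity assembly, 5 in the second and 7 in CLC. The median of 2.5 became 1.5, 0.5 and 1 in the same order. The share of coded contigs on the 10 genes was 0.0919%, with 0.106% in the first Trinity assembly, 0.0584% in the second and 0.0907% in CLC. Of 68 relatives and pathway genes, 53 were listed, with 47 in the first Trinity assembly, 26 in the second and 41 in CLC. Of the 2 genes with contigs in more than 1 Trinity gene of the same assembly, 1 (ADH1) was so within the second. The alternatives for these last counts were chosen after seeing the data. PDC2 and SUS1 had 0 contigs in every setting. The precision of all counts is limited by the collapsing of similar sequences, which cannot be undone from names.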
